A study of Mus musculus with 10 samples.

Results

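A dysplastic nodule of a Gnmt knockout mouse liver was compared with the liver tissue next to it. The comparison used 2 of the 10 arrays of the series, chosen by their titles: 1 array of dysplasia nodule tissue and 1 array of nodule-adjacent tissue. Both tissues were labelled as Gnmt -/-, strain 129/B6, female and 21 months old. Each was labelled as coming from a single mouse, and the mice carry no number, so that both came from the same animal is read from the word adjacent. How many nodules the RNA came from, and how the knockout allele was made, are not given in the sources used here. No treatment was labelled for any group. The other arrays held hepatocellular carcinoma (HCC) and HCC-adjacent liver of a knockout male of 18 months and of a knockout female of 14 months, and 4 pools at 11 weeks, each of 3 mice, from wild-type and knockout females and males. With 1 array a side there was no replicate of the nodule, so every difference below describes these 2 arrays and carries no test.

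Gnmt encodes glycine N-methyltransferase, the liver enzyme that uses up S-adenosylmethionine (SAM), the methyl donor of the cell, by methylating glycine to sarcosine. Mice without it accumulate SAM in the liver, develop fatty liver and later form liver tumours. A dysplastic nodule is a lesion of altered hepatocytes that is regarded as a step that can precede HCC. Nodules and carcinomas of the liver are known for changes in oxidative stress defence, lipid synthesis, fetal gene expression and cell division, and the results follow that order.

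Genotype and sex labels were checked first. Gnmt had a signal of 80.7 in the nodule and 329.4 in adjacent liver, against 52139.9 and 59472.6 in the wild-type pools and 11.7 to 245.2 in the other knockout arrays. Xist was at 9627.8 and 12357.4, and the Y-linked Eif2s3y at 5.3 and 40.5, against 1443.9 to 2177.5 in the male arrays. Array medians were 87.7 and 88.6, and the Actb 3' to 5' ratio, which rises with RNA breakdown, was 2.46 and 2.57. The 18S rRNA control probe set stood at 20.9 in the nodule and 79.9 in adjacent liver, and likewise at 19.5 and 21.5 in the HCC arrays and 57.3 and 79.1 in their adjacent livers, so it separated lesions from adjacent tissue; its part in the results was not tested. Across probe sets the nodule had a Spearman correlation of 0.873 with its adjacent liver and of 0.894 with the HCC-adjacent liver of the other aged female, so by this measure the nodule was no closer to its own adjacent tissue than to another liver. The defining hepatocyte genes were bright on both arrays: albumin (Alb) stood at 62848.4 and 77438.3, and the 15 hepatocyte markers summed to 593835 in the nodule and 793780 in adjacent liver. The label of liver tissue thus matched both arrays.

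Differences are given as log2 of (signal + 16.8) in the nodule minus the same in adjacent liver, with 16.8 the 20th percentile of all deposited values. A gene is represented by its brightest probe set and is counted where the mean signal over all 10 arrays was above 91.0, the median of all values, which left 11508 of 18194 named genes. Of these, 993 genes (8.63%) were at least 2-fold higher in the nodule and 502 (4.36%) at least 2-fold lower. Because the filter uses all 10 arrays, 44 of the higher genes passed it only through the nodule and 24 of the lower genes only through the adjacent liver. The median difference was 0.03 and the middle of the genes, between the quartiles, lay from -0.31 to 0.41. At 4-fold there were 219 higher and 72 lower genes, and at 16-fold 26 higher and 1 lower. So the upper tail was longer than the lower. Over all 45101 probe sets without any filter, 4962 were at least 2-fold higher and 4931 lower, while among the 22209 probe sets past the filter 1818 were higher and 1058 lower. With each array centred on its 75th percentile the median of all genes moved to -0.09, and 54.7% of the 2-fold genes were the higher ones in place of 66.4%.

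**Figure D1:**
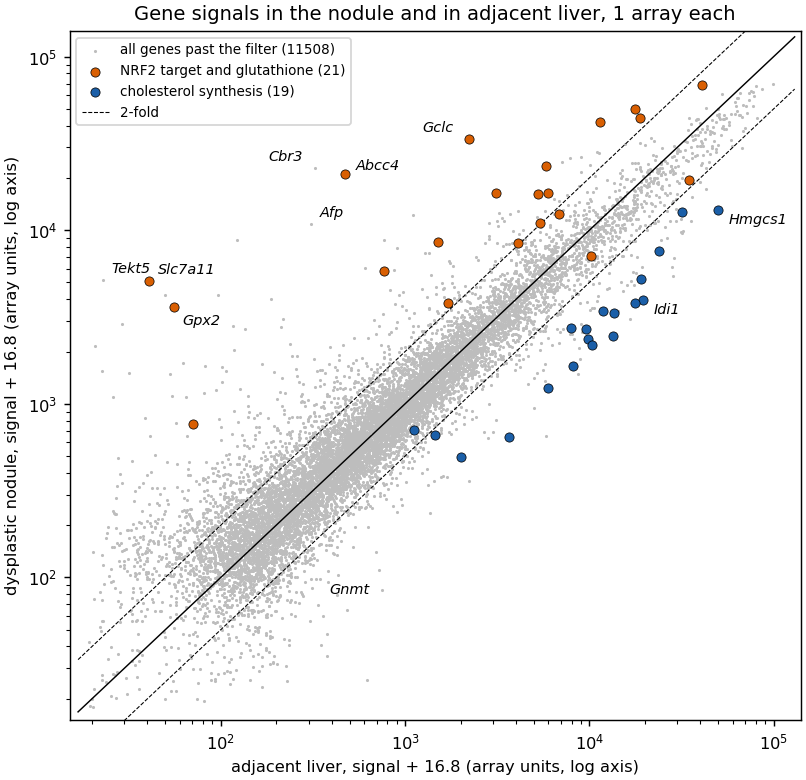
Signal + 16.8 of each of 11508 genes in adjacent liver (x axis) and in the dysplastic nodule (y axis), in array units on log axes, 1 array each. Orange points are NRF2 target and glutathione genes, 17 of 21 of them above the upper dashed 2-fold line, and blue points are cholesterol synthesis genes, 18 of 19 of them below the lower dashed line; the solid line marks equal signals.

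Many of the widest differences upward were in genes with little signal in adjacent liver, though Abcc4, Cbr3 and Afp had 456.4, 308.6 and 290.9 there, above the array median of 88.6. Tekt5, a tektin of sperm flagella, had a signal of 5144 in the nodule and 6.0 in adjacent liver, a log2 difference of 7.82, and 4.4 to 217.9 in the other 8 arrays. Slc22a12, the urate transporter of the kidney, stood at 4205.2 and 32.7 (6.41). Cbr3, a carbonyl reductase, stood at 22684.9 and 308.6 (6.12). In all of these the nodule was the highest of the 10 arrays. Heph (hephaestin, a copper ferroxidase), Styk1 (a receptor-like kinase), S100g (a calcium-binding protein), Slc1a1 (a glutamate and cysteine transporter) and Meig1 (a meiosis gene) differed by 6.69, 6.64, 6.10, 5.56 and 5.39. Adjacent-liver signals of Heph, Styk1, S100g, Slc1a1 and Meig1 were below the added constant, as were those of 68 of the 993 higher genes, so the size of those values depends on that constant. Tekt5 ranged from 7.03 to 8.48 over the settings tried. Tekt5, Heph, Styk1, S100g, Slc1a1 and Meig1 were among the genes that passed the filter only through the nodule. For these genes a high rank of the nodule follows in part from the filter. Cyp4a12a, a cytochrome P450 typical of male liver, stood at 8765.1 in the nodule and 106.1 in adjacent liver (6.16). There the adjacent liver was the low array, since the other 8 ranged from 688.7 to 25351.3.

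The widest differences downward were smaller. Fmr1nb, a testis gene, had a signal of 9.0 in the nodule and 602.8 in adjacent liver (-4.59), with 43.0 to 154.9 in the other 8 arrays, so here the adjacent liver stood above all others and the nodule below. Fmr1nb passed the filter only through the adjacent liver, so the high rank of that array follows in part from the filter. Tcl1b3 stood at 633.7 and 5806.3 (-3.16), and Mfsd2a, the lysophosphatidylcholine transporter, at 1460.2 and 8615.3 (-2.55). Cyp8b1, the sterol 12-alpha-hydroxylase that sets the cholic acid share of bile, stood at 341.2 and 2193.1 (-2.63). The cholesterol synthesis genes Pmvk and Tm7sf2 were also among the 20 named genes with the widest negative difference, not counting 5 genes of that range that have only clone or prediction names.

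The NRF2 group was the clearest of the nodule-high groups. NRF2 is a transcription factor that is held down by KEAP1 and, once released by oxidants or electrophiles, binds antioxidant response elements and raises genes of glutathione synthesis, glutathione transfer, quinone reduction and NADPH supply. Of 23 listed genes 21 were past the filter, 17 (81.0%) were at least 2-fold higher in the nodule and none at least 2-fold lower. The median difference was 1.60, against 0.03 over all genes. In 19 of the 21 the nodule had the highest signal of the 10 arrays, against 8.91% of all genes.

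Supply of glutathione led the group. Slc7a11, the cystine importer that brings in the limiting amino acid, had a signal of 5090.3 in the nodule and 23.8 in adjacent liver (6.97), and 1.5 to 373.5 in the other 8 arrays. Its other probe set past the filter differed by 3.59. Gclc, the catalytic subunit of glutamate-cysteine ligase, stood at 33594.4 and 2213.7 (3.91), with the others at 2264 to 12382.1. So for both genes the nodule lay above every other array. The brightest probe set of Slc7a11 passed the filter only through the nodule, and Slc7a11 is counted among the genes with the nodule highest. Gclm, the modifier subunit of the same ligase, stood at 10939.5 and 5353.3 (1.03). Gsr, which reduces oxidised glutathione, stood at 8501.7 and 1482.9 (2.51).

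Enzymes that use glutathione or reduce oxidants followed. Gpx2, a glutathione peroxidase best known from the gut, had a signal of 3583 in the nodule and 38.6 in adjacent liver (6.02). Nqo1, the quinone reductase used as the standard readout of NRF2, stood at 5815.3 and 751.3 (2.92), with 209.0 to 940.4 in the other arrays. Hmox1, heme oxygenase, stood at 751.2 and 53.7 (3.44). The Hmox1 difference owed much to the adjacent liver, which was the lowest array, below the 99.0 to 564.4 of the others. Thioredoxin reductase (Txnrd1, 1.04), sulfiredoxin (Srxn1, 1.16) and epoxide hydrolase (Ephx1, 1.23) were just past 2-fold. Among the glutathione transferases Gsta4 differed by 2.39, Gsta2 by 1.88 and Gstm2 by 1.60, and Gstm3 stood at 50091.8 and 17664. Gstm1 differed by 0.75, short of 2-fold. Gstp1 went the other way: it stood at 19548.3 in the nodule and 34542.2 in adjacent liver (-0.82), and the nodule was the lowest of the 10 arrays.

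Enzymes of the pentose phosphate route, whose oxidative branch makes NADPH, were measured as well. Tkt, transketolase, stood at 23491.3 and 5806.6 (2.01), Pgd, of the oxidative branch, differed by 1.45, and Taldo1 by 0.86, short of 2-fold. Me1, malic enzyme, was at 7129.1 in the nodule and 10162 in adjacent liver (-0.51). Me1 is also a lipid synthesis gene, a group that was lower in the nodule, and whether this bears on its value was not tested. Abcc4, an export pump for bile acids and conjugates that is also an NRF2 target, stood at 21089.4 and 456.4 (5.48), and at 143.8 to 911.7 elsewhere.

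**Figure D2:**
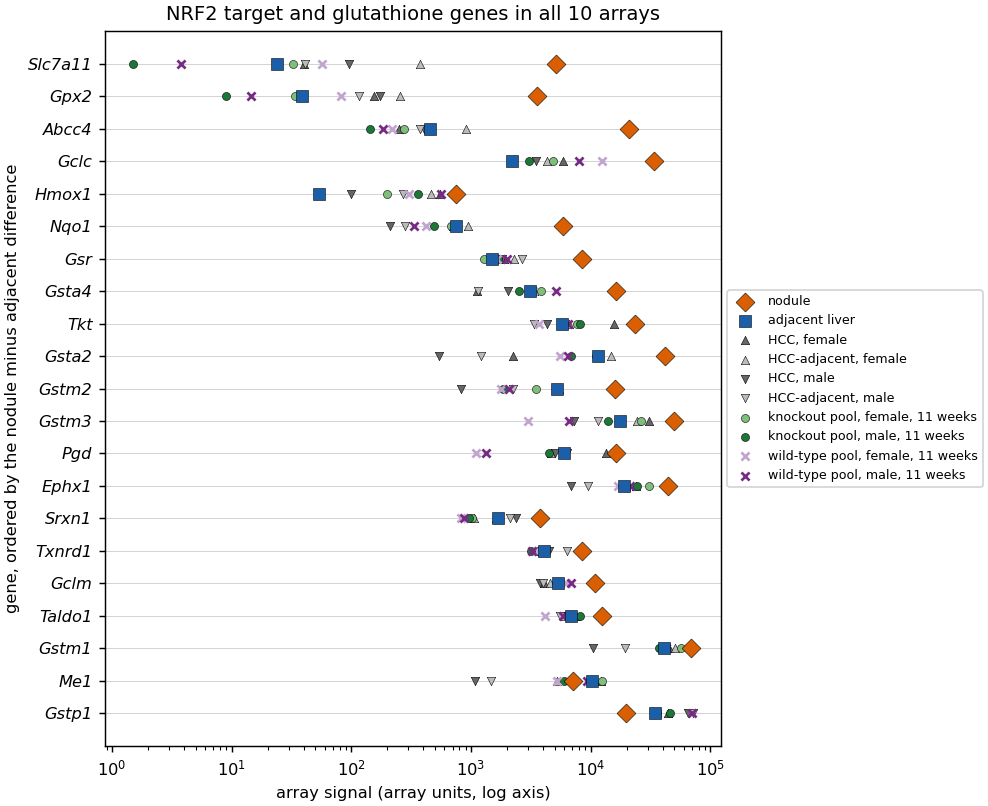
Array signal (x axis, array units, log axis) of the 21 NRF2 target and glutathione genes in all 10 arrays, ordered by the nodule minus adjacent difference. The nodule (orange diamonds) is the right-most point in 19 of 21 genes, while the adjacent liver (blue squares) lies among the other arrays in most of them.

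The promoters of these genes were searched for the core of the antioxidant response element, TGACNNNGC, on both strands (GCNNNGTCA on the other), in a window of 250 bases before to 50 after each RefSeq start site. Of the listed genes 19 had a window and 7 (36.8%) held a match, against 14.0% of 27025 genes with a window, 17.4% of the genes at least 2-fold higher in the nodule and 15.0% of those at least 2-fold lower. Thus the match was about as frequent among the nodule-high genes at large as among the nodule-low ones. The stretches with a match before the start site are shown for 3 genes of the group, to set the ligase subunit and the reductase, both near 2-fold, beside the pump with the wide difference. They are RefSeq sequences of build GRCm38.p6, printed along the gene's strand with the match in capitals: Gclm (chr3:122245393-122245461, plus strand), Txnrd1 (chr10:82859084-82859152, plus strand) and Abcc4 (chr14:118706220-118706274, minus strand).
Gclm: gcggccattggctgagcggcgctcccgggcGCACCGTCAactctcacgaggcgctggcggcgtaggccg
Txnrd1: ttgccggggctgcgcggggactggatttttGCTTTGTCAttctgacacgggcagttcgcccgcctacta
Abcc4: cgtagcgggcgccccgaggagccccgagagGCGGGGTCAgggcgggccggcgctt
In all 3 the match lies on the strand opposite to the gene, and it starts 134, 92 and 25 bases before the start site. A match is a description of these letters and not evidence of binding.

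Cholesterol synthesis was the clearest nodule-low group. The pathway runs from acetyl-CoA through mevalonate, isoprenoids and squalene to sterols, and its enzymes are driven together by the transcription factor SREBP2 when sterols in the endoplasmic reticulum run low. Of 23 listed genes 19 were past the filter, 18 (94.7%) were at least 2-fold lower in the nodule, against 4.36% of all genes, and none was at least 2-fold higher. The median difference was -2.01. In 16 of the 19 genes the adjacent liver had the highest signal of the 10 arrays, against 6.08% of all genes, whereas the nodule was the lowest in 3.

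The difference ran along the whole pathway. Hmgcs1, which makes HMG-CoA, had a signal of 13101.2 in the nodule and 49593.4 in adjacent liver (-1.92), with 7343.3 to 40575.6 in the other 8 arrays. At the mevalonate steps Mvk differed by -1.14, Pmvk (626.9 and 3633.8) by -2.50 and Mvd by -2.04. Among the isoprenoid enzymes Idi1, the isopentenyl diphosphate isomerase, stood at 3962 and 19469.7 (-2.29), and both of its probe sets gave -2.29. Fdps differed by -2.23. For Hmgcs1 and Idi1 the nodule signal lay within the range of the other arrays and the adjacent signal above it. Squalene synthase (Fdft1, -2.01), squalene epoxidase (Sqle, -2.07) and lanosterol synthase (Lss, -2.29) were lower too. Among the sterol-modifying enzymes Cyp51 (-2.25), Tm7sf2 (-2.45), Msmo1 (-1.87), Nsdhl (-1.84), Hsd17b7 (-2.29), Ebp (-1.65), Sc5d (-1.33) and Dhcr7 (-1.79) were all past 2-fold. Insig1, the sterol-responsive retention protein, differed by -1.55. Srebf2, which encodes SREBP2 itself, stood at 689.4 and 1107.2 (-0.67), short of 2-fold.

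**Figure D3:**
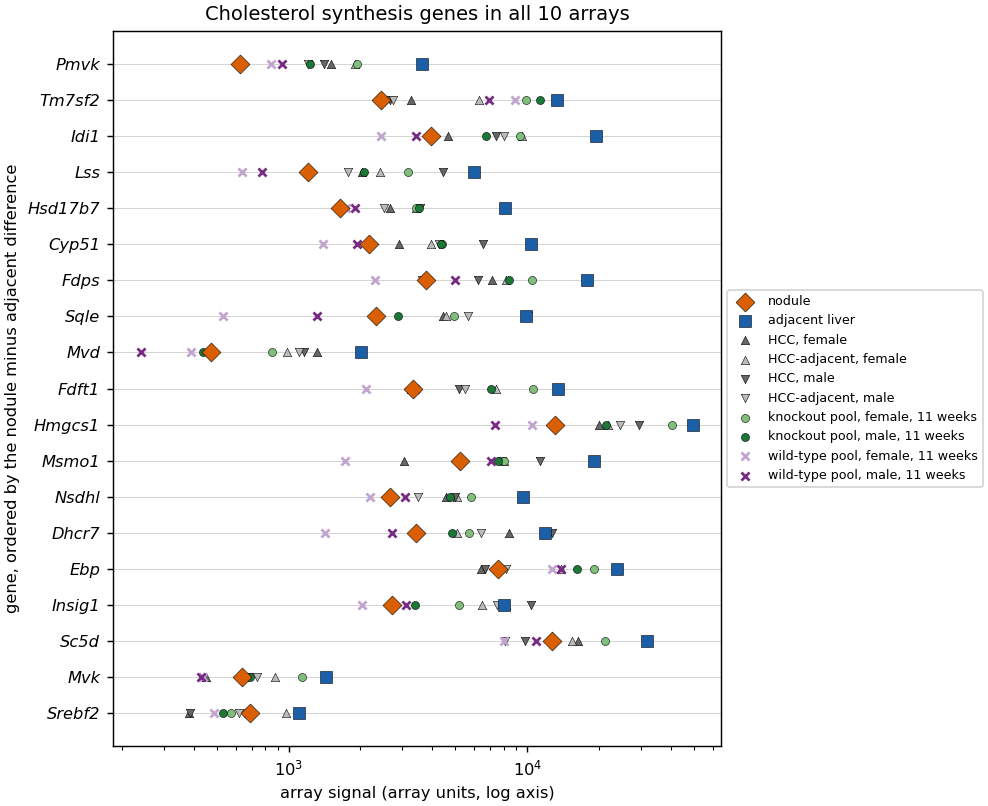
Array signal (x axis, array units, log axis) of the 19 cholesterol synthesis genes in all 10 arrays, ordered by the nodule minus adjacent difference. The adjacent liver (blue squares) is the right-most point in 16 of 19 genes, and the nodule (orange diamonds) lies left of it in every gene, often close to the wild-type pools (crosses).

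A sterol regulatory element written as TCACNCCAC was searched in the same windows, on both strands. It was found in 1 of 16 cholesterol synthesis genes with a window (6.25%), against 1.44% of all genes with one. That gene was Hmgcs1, shown here as a member of the group whose promoter holds the motif (chr13:119690184-119690252, plus strand, GRCm38.p6, RefSeq, match in capitals, 137 bases before the start site).
Hmgcs1: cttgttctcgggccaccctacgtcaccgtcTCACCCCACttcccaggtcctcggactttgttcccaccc

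Fatty acid and triglyceride synthesis was lower by a smaller margin. Of 22 genes 9 were at least 2-fold lower and 1 at least 2-fold higher, against 4.36% and 8.63% of all genes, with a median of -0.87. The desaturases Fads2 (5003.4 in the nodule and 14770.5 in adjacent liver, -1.56) and Fads1 (-1.55), the phosphatidate phosphatase Lpin1 (-1.54), the lipogenic regulator Thrsp (-1.47) and ATP citrate lyase (Acly, -1.44) had the widest differences. Srebf1, the SREBP gene of fatty acid synthesis, differed by -1.30, and fatty acid synthase (Fasn), at 5714.9 and 9576.8, by -0.74. Mlxipl, the carbohydrate-responsive regulator ChREBP, was the gene at least 2-fold higher, with 6886.1 and 3316.5 (1.05).

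Genes of lipid uptake and storage split in both directions. Of 20 such genes 5 were at least 2-fold higher and 3 at least 2-fold lower, against 8.63% and 4.36% of all genes, with a median of -0.47. Lipoprotein lipase (Lpl), low in normal adult hepatocytes, had a signal of 12212.9 in the nodule and 1080.7 in adjacent liver (3.48). The VLDL receptor (Vldlr, 2.58), the fatty acid binding protein Fabp4 (1.97) and the adipogenic nuclear receptor Pparg (1.77) were higher. Another binding protein, Fabp5, stood at 6099.3 and 28062.6 (-2.20), and the lipid droplet protein Cidea at 85.9 and 416.0 (-2.08). Fatty acid oxidation genes differed little: 1 of 18 was at least 2-fold higher, 1 at least 2-fold lower, and the median was -0.37.

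Fetal liver and liver tumour genes were higher in the nodule. This group holds genes of the fetal liver that adult hepatocytes silence, with surface and secreted genes known from liver tumours. Of 23 genes past the filter 12 were at least 2-fold higher, against 8.63% of all genes, and 1 at least 2-fold lower, with a median of 1.43. Alpha-fetoprotein (Afp), the classical fetal and tumour serum protein, had a signal of 10859.4 in the nodule and 290.9 in adjacent liver (5.14). Its other probe sets past the filter gave 4.74, 5.39 and -2.36, and the mean over all of its probe sets was 2.52. Spink1, a secreted trypsin inhibitor, stood at 1475.7 and 36.2 (4.82), and carboxypeptidase E (Cpe) at 1638.7 and 65.4 (4.33). Ly6d (3.51), Anxa2 (2.54), the Golgi membrane protein Golm1 (1.92), Gpc3, the glypican used as an HCC marker (232.2 and 67.6, 1.56), and Cd24a (1.43) were also past 2-fold. Not all members followed. Igf2 stood at 422.0 and 235.8 (0.80), Bex1 differed by 0.47, and Akr1c18 was at 11.9 in the nodule and 94.9 in adjacent liver (-1.96).

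Cell division genes were higher as well. Of 18 past the filter 10 were at least 2-fold higher and none at least 2-fold lower, against 8.63% and 4.36% of all genes. The median was 1.02. Cdk1, the kinase that starts mitosis, had a signal of 488.5 in the nodule and 27.2 in adjacent liver (3.52), Aurka 270.7 and 10.2 (3.41), and Birc5 260.3 and 17.1 (3.03). Rrm2, the small subunit of ribonucleotide reductase, stood at 1427 and 243.7 (2.47). The adjacent liver was the lowest of all arrays for Aurka, whereas for Cdk1 the wild-type female pool, at 15.2, was lower. Proliferation antigen Mki67 was just past 2-fold (304.7 and 142.7, 1.01), and Pcna, at 3466.1 and 2478.8, differed by 0.48. The regulators of entry into the cycle had no common direction: of 12 the CDK inhibitor Cdkn2b was higher (355.2 and 63.7, 2.21), cyclin D1 (Ccnd1) was lower (2882.1 and 8984.2, -1.64), and the median was 0.15.

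**Figure D4:**
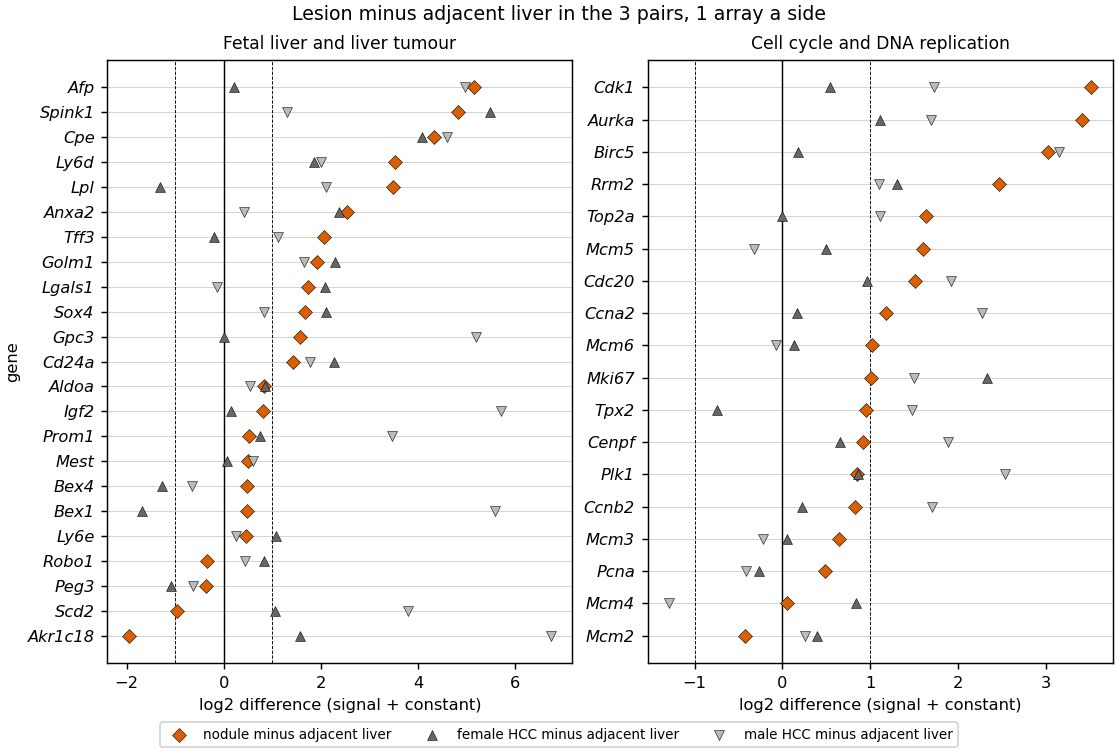
Log2 difference between lesion and adjacent liver (x axis, signal + 16.8) for 23 fetal liver and liver tumour genes (left) and 18 cell cycle genes (right) in the nodule pair (orange diamonds), the female HCC pair (dark triangles) and the male HCC pair (light triangles), 1 array a side. Dashed lines mark 2-fold; Cpe, Spink1 and Ly6d lie beyond it in all 3 pairs, whereas Igf2 and Bex1 lie beyond 5 only in the male HCC pair.

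Matrix genes were higher in the nodule, and for several the adjacent liver was the low array. Of 23 matrix and fibrosis genes 14 were at least 2-fold higher and none at least 2-fold lower, against 8.63% and 4.36% of all genes. The median was 1.08. Col1a1, the main chain of type I collagen, had a signal of 809.4 in the nodule and 21.8 in adjacent liver (4.42), with 95.9 to 977.2 in the other 8 arrays. Col3a1 stood at 3284.2 and 744.1 (2.12) and Col4a1 at 1484.2 and 351.1 (2.03). So for these collagens the nodule was within the range of the other arrays and the adjacent liver below it, as in 8 of the 23 genes, against 8.64% of all genes. The macrophage elastase Mmp12 (2.52) and Lgals3 (2.13) were higher too, and in Mmp12 the nodule was the highest of the 10. Fibronectin (Fn1), a product of hepatocytes, differed by -0.48.

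Markers of other cell types differed alongside these groups. For comparison, 8.63% of all genes were at least 2-fold higher and 4.36% lower. The summed signal of 18 macrophage markers was 50465 in the nodule, 24826 in adjacent liver and 43417 to 63459 in the HCC and HCC-adjacent arrays. It was 26054 and 24875 in the knockout pools and 33063 and 43827 in the wild-type pools, so the adjacent liver was low among the aged livers and level with the young knockout pools. Of these markers 9 were at least 2-fold higher, among them C1qa (4364.5 and 953.1, 2.17), Cybb (2.14), Mpeg1 (1.77) and Cd68 (1.76), and Marco was lower (165.1 and 450.5, -1.36). The Kupffer cell markers Clec4f (0.28) and Vsig4 (0.29) differed by far less. In tissue RNA, fewer cells of a type and less RNA per cell cannot be told apart. Of 17 stellate cell and fibroblast markers 6 were higher and 1 lower, the higher ones including the collagens above, and the median was 0.11. The endothelial median was 0.46, with Lyve1 (940.8 and 331.3, 1.46) and Emcn (1.15) past 2-fold.

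Among 9 cholangiocyte markers past the filter 5 were at least 2-fold higher, against 8.63% of all genes. Anxa13 stood at 2013.6 in the nodule and 100.8 in adjacent liver (4.11), St14 differed by 3.83 and Tspan8 by 2.67. The keratins and adhesion genes that define bile duct cells were dim or did not differ in that way: Krt19 stood at 149.2 and 96.1, Epcam at 125.8 and 184.6 and Krt7 at 77.4 and 149.3. Immunoglobulin genes were lower in the nodule. Ighm stood at 1786 and 8854.1 (-2.30), Jchain at 519.5 and 1154.7 (-1.13) and Ighg3 at 68.3 and 731.2 (-3.14). Ighg3 passed the filter only through the adjacent liver. Other Ighm probe sets past the filter ranged from -2.07 to -0.26, and the mean over all of its probe sets was -0.80. The summed signal of 8 B and plasma cell markers was 3070 and 10837, the latter the highest of the 10 arrays. Ighm made up most of both sums. Of the 8 markers 2 were at least 2-fold lower and 1, Derl3 (239.6 and 89.6, 1.27), higher, against 4.36% and 8.63% of all genes. Neutrophil markers summed to 26865 and 24070. Most T and NK cell markers were dim on both arrays, with 4 past the filter.

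Inflammatory groups sat above the all-gene median by smaller amounts. For comparison, 8.63% of all genes were at least 2-fold higher and 4.36% lower. Of 22 interferon response genes 7 were at least 2-fold higher and none at least 2-fold lower (median 0.68), led by Ifit2 (336.7 and 66.9, 2.08) and Rsad2 (1.40). The adjacent liver was the lowest array in 5 of these 22 genes, Rsad2 among them, against 8.64% of all genes. The nodule was the highest in 2, against 8.91%. Of 16 chemokine and inflammation genes 6 were higher and 1 lower (median 0.70), with the monocyte attractant Ccl2 at 211.2 and 24.6 (2.46) and its receptor Ccr2 at 332.5 and 87.3 (1.75). Another Ccr2 probe set past the filter gave -0.03, and the mean over all Ccr2 probe sets was 0.12. Of 9 MHC class II and antigen presentation genes 4 were higher (median 0.58), with Cd74 at 8381.7 and 2701 (1.63). Against the HCC-adjacent liver of the other aged female the interferon median was 0.032 for the nodule and -0.462 for its adjacent liver. There the chemokine medians were 0.491 and -0.348, and the MHC class II medians 0.061 and -0.517. Against the young knockout female pool they were 0.555 and -0.191, 1.356 and 0.257, and 0.73 and 0.003, in that order. Macrophage markers, with summed signals of 50465 and 24826, differed in the same direction as these groups and the matrix group, and their part in the results was not tested.

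A few genes of protein folding stress and amino acid supply were higher in the nodule than in its adjacent liver. Of 24 unfolded protein response and ATF4 genes 5 were at least 2-fold higher and none at least 2-fold lower, against 8.63% and 4.36% of all genes. The median was 0.43. Psat1, an enzyme of serine synthesis, stood at 319.9 in the nodule and 10.4 in adjacent liver (3.63). Creld2 (1.92), asparagine synthetase (Asns, 328.3 and 86.8, 1.74), Sdf2l1 (1.61) and Ddit3 (1.39) were the others. For Asns the adjacent liver was the lowest of the 10 arrays, and the nodule lay below the median of the other arrays, 1418.0. The adjacent liver was the lowest in 6 of the 24 genes, against 8.64% of all genes. Against the HCC-adjacent liver of the other aged female the list median was -0.042 for the nodule and -0.285 for its adjacent liver.

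Hepatocyte functions were slightly lower across many lists. All but 1 of the 15 hepatocyte markers were lower, none by 2-fold, with a median of -0.39, and for 6 of them, albumin among these, the nodule was the lowest of the 10 arrays. Over the processing settings tried the hepatocyte median ranged from -0.515 to -0.062, so its size depended on the processing. The acute phase median ranged from -0.712 to -0.501, and that of complement and coagulation from -0.447 to -0.187. Of 26 acute phase genes 3 were at least 2-fold lower, against 4.36% of all genes, and none higher (median -0.59), with the iron hormone hepcidin (Hamp) at 29737.7 and 66959.1 (-1.17) and Mt2 at 15614.8 and 36030.7 (-1.21). Complement and coagulation genes had a median of -0.32, with C8a (-1.75) and C8b (-1.05) at least 2-fold lower and C6 (700.5 and 330.6, 1.05) higher. That was 9.09% of the 22 genes lower and 4.55% higher, against 4.36% and 8.63% of all genes. The nodule was the lowest array for 9 of the 26 acute phase genes and 9 of the 22 complement and coagulation genes, against 8.32% of all genes.

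The methyl group pathway in which Gnmt works had a negative median. Of 22 methionine and SAM genes 4, the targeted Gnmt among them, were at least 2-fold lower, against 4.36% of all genes, and none higher, with a median of -0.62. Nnmt, a methyltransferase that spends SAM on nicotinamide, had a signal of 6149.9 in the nodule and 19220.6 in adjacent liver (-1.64), with 1352.7 in the female HCC. Sardh, which degrades the sarcosine that Gnmt makes, stood at 7168.7 and 16792.9 (-1.23), and Pemt, the phosphatidylcholine methyltransferase, at 3285.2 and 6733.7 (-1.03). Gnmt itself differed by -1.83, between signals that on both arrays are those of a knockout. Mat1a, which makes SAM in adult liver, stood at 27512.3 and 44967.6 (-0.71).

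Bile acid genes were split between uptake and export. The exporters Abcc4 (5.48), Abcc3 (12614.8 in the nodule and 3206.8 in adjacent liver, 1.97) and Abcc2 (12956.6 and 5750.4, 1.17) were at least 2-fold higher. For Abcc3 the adjacent liver was the lowest array of the series, and the nodule lay within the range of the other arrays, 4084.3 to 12981.0. The uptake transporters Slc10a1 (4023 and 19892.2, -2.30) and Slco1a4 (1551.5 and 5570.6, -1.83), and the synthesis enzymes Cyp8b1 (-2.63) and Cyp7a1 (3866.9 and 9707.6, -1.32), the rate-limiting step, were at least 2-fold lower. The median of the 20 genes, -0.28, therefore hides differences in both directions. Of the 20 genes 3 were at least 2-fold higher and 4 lower, against 8.63% and 4.36% of all genes.

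Zonal and endocrine genes of hepatocytes were described by the same counts, against 4.36% of all genes lower and 8.63% higher. Among 19 pericentral beta-catenin targets 3 were at least 2-fold lower and 1 higher (median -0.65), with ornithine aminotransferase (Oat) at 5426.8 and 28294.1 (-2.38) and regucalcin (Rgn) at -1.72. Among 17 periportal and amino acid catabolism genes 3 were lower and none higher (median -0.51), led by Agxt (-1.41). Lists of both zones thus had negative medians. Of 15 female-biased genes 9 were at least 2-fold lower and 1 higher (median -1.23), with Acot3 at 929.0 and 4971.6 (-2.40), Sult3a1 at 667.6 and 2965.6 (-2.12) and Cyp17a1 at 4796.4 and 17486 (-1.86). Male-biased genes showed no common direction: 4 of 13 were higher and 3 lower, with a median of 0.41. In the growth hormone axis Igf1 stood at 10418.9 and 25638.9 (-1.30) and Igfbp2 at 4819.1 and 15941 (-1.72), with 5 of 19 genes at least 2-fold lower and none higher.

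Clock genes were mostly lower in the nodule, with 17 of 21 differences negative and 4 positive (median -0.54). Arntl, which encodes the activator BMAL1, had a signal of 128.7 in the nodule and 13.6 in adjacent liver (2.26), and the clock output gene Dbp stood at 2505 and 7797.6 (-1.63). The adjacent signal of Arntl was below the added constant, and its other probe set past the filter gave 0.09. Of 21 clock genes 1 was at least 2-fold higher and 4 lower, against 8.63% and 4.36% of all genes. Npas2 was among the lower ones, at 8.4 and 37.9 (-1.12), with the nodule signal below the added constant. Glycogen genes were split, with the targeting subunit Ppp1r3c at 1806.3 and 302.6 (2.51), Ugp2 and Gbe1 both at 1.36, and Ppp1r3b at 2671.6 and 7176.3 (-1.42). In glycolysis the M isozyme Pkm was higher (1622.7 and 399.7, 1.98), Aldoc (-1.35) and Ldha (11212.6 and 23547.5, -1.07) were lower, and 15 of the 18 genes were within 2-fold. No respiratory chain gene of 20 and no cytosolic ribosomal protein gene of 13 differed by 2-fold, and their medians were -0.11 and -0.14.

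The nodule shared a minority of its differences with the carcinomas. No array is shared between the 3 lesion pairs. Of the 993 genes at least 2-fold higher in the nodule 265 (26.7%) were at least 2-fold higher in the female HCC than in its adjacent liver, which is 32.2% of the 822 genes higher in that pair, against 7.14% of all genes. With the male HCC 154 were shared, 15.5% of the nodule genes and 25.7% of the 600 genes of that pair, against 5.21% of all genes. Among the higher genes 53 and 81 lay in the opposite direction. Of the 502 lower genes 97 (19.3%, and 18.7% of 520) were lower in the female pair and 65 (12.9%, and 11.2% of 582) in the male pair, against 4.52% and 5.06% of all genes. In the opposite direction lay 54 and 61 of the lower genes, so with the male pair nearly as many were opposite as shared. Over the 11508 genes, which share the array and are not independent, Pearson's correlation of the differences was 0.258 with the female pair and 0.088 with the male pair.

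Of all 11508 genes 8.63%, 7.14% and 5.21% were at least 2-fold higher in the nodule, female HCC and male HCC pairs. At least 2-fold lower were 4.36%, 4.52% and 5.06%. The genes past 2-fold in all 3 pairs numbered 55 higher and 18 lower. The higher ones included Spink1, Cpe, Ly6d, Psat1, Golm1, Cd24a, Tspan8, Cdkn2b, Sparc, Aurka, Rrm2 and Mki67. Aldh18a1, which starts proline synthesis, stood at 1130.1 and 64.4 in the nodule pair, and the milk fat globule protein Mfge8 at 6007.2 and 588.9. The lower ones included Oat, Rgn, Slco1a4, Dbp and the drug-metabolising P450 genes Cyp2c37 (3424.8 and 14217.2, -2.05) and Cyp2c50 (4635.4 and 12802). Hamp2, a second hepcidin gene, stood at 3076.7 and 16688.6 (-2.43). Pon1, the serum paraoxonase, stood at 18861.2 and 39876.9.

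Medians of the leading groups can be set side by side for the 3 pairs. The NRF2 group had a median of 1.60 in the nodule pair, -0.06 in the female HCC pair and -0.33 in the male. Cholesterol synthesis had -2.01, -0.34 and 0.28, and fatty acid and triglyceride synthesis -0.87, 1.04 and 0.30. Fetal and tumour genes had 1.43, 0.85 and 1.64, and cell cycle genes 1.02, 0.44 and 1.49. With 1 pair of each kind these differences between pairs were not tested.

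Which of the 2 arrays set a difference was read against the other 8. Of the 993 higher genes the nodule was the highest of 10 arrays in 298 and the adjacent liver the lowest in 355, against 8.91% and 8.64% of all genes, with 59 in both. Of the 502 lower genes the nodule was the lowest in 196 and the adjacent liver the highest in 127, against 8.32% and 6.08%, with 26 in both. Genes picked for a gap between these 2 arrays hold such extremes more often by construction, so the excess over all genes is no result. The counts say only in how many of these genes each array stood at the edge of the series.

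Each array was therefore also set against the HCC-adjacent liver of the other aged female, and against the pool of young knockout females, which both then share. The NRF2 median was 1.56 for the nodule and -0.30 for its adjacent liver, and against the pool it was 1.84 and -0.01, so with either comparator this difference lay on the side of the nodule. The cholesterol median was -0.96 and 1.05 against the other aged liver and -1.07 and 0.90 against the pool, so it was spread over both. The macrophage median was 0.13 and -0.84 against the aged liver but 1.52 and 0.11 against the pool, so which array stood apart depended on the comparator. The female-biased median was 0.60 and 1.56 against the aged liver and -1.24 and -0.21 against the pool, so the sign of the nodule value depended on the comparator. Matrix genes (0.96 and -0.57), fetal genes (0.88 and -0.53) and cell cycle genes (0.42 and -0.68) departed on both sides from the aged liver. Against the pool these were 1.11 and -0.06, 1.56 and 0.02, and 1.14 and 0.05, with the adjacent liver near 0. The young pools stood apart from the aged arrays in control probe sets. The ratio of BioC to BioB was 3.9 to 5.09 in the pools and 1.45 to 1.84 in the aged arrays. The 18S rRNA probe set stood at 115.6 to 292.9 in the pools and 19.5 to 79.9 in the aged arrays. The part of this in comparisons that use the pools was not tested.

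**Figure D5:**
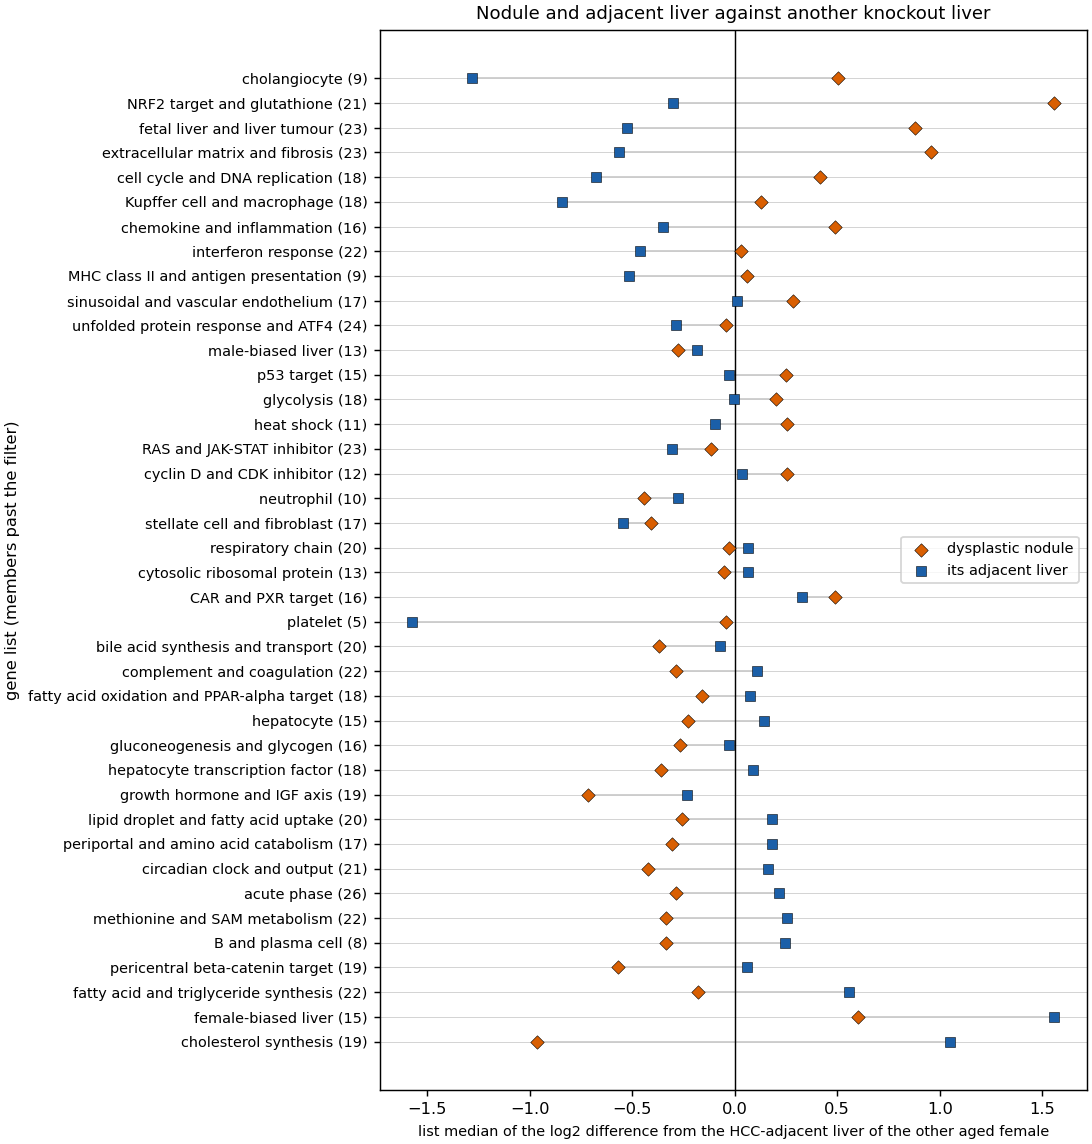
Median log2 difference of each gene list (x axis, signal + 16.8) between the dysplastic nodule (orange diamonds) or its adjacent liver (blue squares) and the HCC-adjacent liver of the other aged female, for lists with at least 5 members past the filter, ordered by the nodule minus adjacent median. The NRF2 diamond lies at 1.56 with its square near 0, whereas the cholesterol points lie on both sides of 0 at -0.96 and 1.05.

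Several probe sets of a gene gave a check on the measurement, though they share the RNA and are no replicates of the tissue. Of 288 genes at least 2-fold higher by their brightest probe set and with a further one past the filter, that one pointed the same way in 258 (89.6%) and was itself at least 2-fold higher in 153 (53.1%), against 7.3% of all such genes. Of 155 lower genes the figures were 132 (85.2%) and 70 (45.2%), against 5.1%. The standard deviation between probe sets of a gene was 0.44 on the log2 scale. This spread is technical and does not hold the variation between tissue samples.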

How the data were processed

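Total RNA was labelled and hybridised to Affymetrix mouse arrays, from 5 µg a sample per the labels. The deposited values are linear signal intensities; GCOS is named in the submitters' processing notes, and every array has a mean of 500.0 after trimming 2% at each end. Detection calls were not used. The values were kept as deposited and transformed here to log2(intensity + 16.8). Of 45101 probe sets, 34958 were assigned to 1 gene by the platform annotation, 932 to several and 9211 to none, and 34754 matched a RefSeq gene. The number of arrays, 1 a side, limits the precision, and no test was run. Named genes were Gnmt, the 20 widest differences in each direction, up to 5 members of each list by size, and further members where a count is described. The comparison and the 46 gene lists were chosen with earlier results of these data known. Alternatives changed the constant, scaling, filter and probe set rule. Setting each array against the other aged liver and the young knockout pool was chosen after seeing the data. The code was tested on simulated data. Python 3.11.15, numpy 2.4.6 and pandas 2.3.3 were used.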

Additional observations from a re-analysis of the deposited data

Results flagged for a closer look

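Among the gene groups, 2 differed in direction between the nodule pair and both HCC pairs. Fatty acid and triglyceride synthesis (22 genes) had a median log2 difference of -0.872 in the nodule pair, 0.297 in the male HCC pair and 1.043 in the female HCC pair. NRF2 target and glutathione genes (21 genes) had 1.603, -0.332 and -0.056. Each pair is 1 array a side, of mice of different age and in 1 case sex, so the difference between the pairs was not tested.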

How the results depend on the processing

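No paired analysis was possible because the labels give no replicate numbers and each side has 1 array, so no replicate could be left out either. Without a filter on low signals 1940 genes were at least 2-fold higher and 1675 lower, with 355 and 301 shared with the male HCC pair and 457 and 258 with the female pair. With the filter at the 75th percentile these were 381 and 234, with 49 and 29, and 122 and 60, shared; fewer genes are counted there by construction. The cholangiocyte median, over few dim genes, was 0.556 without a filter, 0.579 with the filter on the nodule and adjacent arrays, 1.103 with the mean of all probe sets and 1.119 with the mean log2 rule, against 1.68. The matrix median was 1.547 at the 75th percentile, and the MHC class II median 1.162 with the mean of all probe sets. With that mean Itgb3 turned to -0.161 (from 1.89) and Rxra to 0.051 (from -1.08). The other Itgb3 probe set, below the filter, gave -2.215 (4.5 in the nodule and 82.1 in adjacent liver). The other Rxra probe sets gave -0.203 and, below the filter, 1.432 (54.7 and 9.7). Why the probe sets of these genes differed was not tested. Against the HCC-adjacent liver of the other female, an alternative chosen after seeing the data as was the mean log2 rule, 658 genes were higher, and medians were 0.128 for macrophage, 0.418 for cell cycle, 0.878 for fetal, -0.177 for fatty acid, -0.964 for cholesterol and 0.599 for female-biased genes, the last with its sign turned. Over the other settings the NRF2 median stayed between 1.48 and 1.88 and the cholesterol median between -2.13 and -1.79. Medians of the stellate, neutrophil, cyclin D, RAS and JAK-STAT, respiratory chain and ribosomal groups took both signs.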
